A study of Mus musculus with 19 samples.

Results

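Progesterone (Pg) was added to 17β-estradiol (E2) in ovariectomized C451A mice, and the genes that differed in their sorted mammary luminal cells (LCs) are described here. Samples were chosen by genotype and treatment in the labels: all mice labelled C451A were taken, 5 with E2+Pg and 5 with E2, which makes 10 of the 19 arrays of the series. The other 9 arrays, from wild-type mice with E2+Pg (n = 5) or E2 (n = 4), were used for the spread of each gene and for the comparison between genotypes. Each array holds the RNA of LCs from 1 mouse. All mice were C57Bl/6N females of 8 weeks. They were ovariectomized at 24 days according to the sample labels (the methods give another age), received a pellet 10 days later and were treated for 21 days. The pellets held 0.01 mg E2 for 60 days, alone or with 1.5 mg Pg. C451A is a germline mutation, present in every cell of the mouse, of the cysteine of estrogen receptor α (ERα) that carries the lipid anchor at the plasma membrane. The array measures how much Esr1 RNA is present and cannot see a point mutation, which leaves the genotype unchecked. The cells were sorted as CD24+CD29lo after removal of CD45+ and CD31+ cells. All 12 pan-luminal markers tested, among them Krt8, Krt18 and Epcam, were well above background on all 10 arrays. All 14 basal and all 12 fibroblast markers tested were too, so this detection does not measure how pure the cells were.

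Progesterone acts through its receptor PR, a transcription factor whose gene, Pgr, is itself an ERα target. In the mouse mammary gland PR and ERα are found in the same minority of luminal cells, the hormone-sensing cells, which answer with secreted signals such as RANKL (Tnfsf11), WNT4, amphiregulin (Areg) and calcitonin peptides (Calca). Neighbouring ERα-negative luminal progenitors receive these signals and can form alveoli, the milk-producing units. A sorted luminal fraction holds both kinds of cell, and in such bulk RNA fewer cells of a type and less RNA per cell cannot be told apart.

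With Pg, 212 genes were higher and 297 were lower in C451A LCs, out of 20681 tested. These are 1.03% and 1.44% of the genes. Called genes are those past both thresholds of the study's methods, an adjusted p (limma, two-sided, Benjamini-Hochberg) under 0.05 and a change of more than 1.5-fold. All values below are probe signals on a log2 scale after quantile normalization, and levels of different probes are not compared. The median log2 fold change was 0.00175 over all genes and 0.926 in size over called genes. Of the called genes, 11 rose and 10 fell by more than 2 on the log2 scale. The groups of 5 did not overlap for 510 genes that were higher (2.47%) and 532 that were lower (2.57%), and for 387 of the 509 called genes. At an unadjusted p under 0.05 there were 1771 higher and 2026 lower genes.

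The mice under E2 were L4, L58, L27, L76 and L51, and those under E2+Pg were L56, L18, L61, L53 and L63. Values of single mice are given in this order, which is also the order of slides 1 to 5: each slide carried 1 mouse of either treatment. Labels call each sample an individual mouse, so the tests measure spread between mice. L18 and L4 were the C451A arrays least like their own group (mean correlation 0.9615 and 0.9658, against 0.9703 to 0.9823 for the other 8). Without both, 162 genes were higher and 195 lower. Single mice moved the counts: higher and lower genes were 97 and 103 without L61, 100 and 118 without L27, 407 and 565 without L18, and 133 and 203 without L4. Lower genes were also 450 without L58, 185 without L76 and 184 without L63. With the 10 C451A arrays fitted alone, the counts were 72 and 77, and 24 of the 56 named genes that were called passed no longer. Among these were Atp2b1, Bcl2a1d, Calca, Cldn1, Etv4, Fam25c, Fcgbp, Fkbp5, Foxa1, Gjb2, Glipr2 and H2-DMa. The same held for Has2, Hk2, Itgb8, Lfng, Ly6a, Mfge8, Pgr, Rspo1, Spink5, Sprr1a and Trpc6 (adjusted p 0.0512 to 0.172). With slide as a block the counts were 149 and 226, and 11 of the 56 passed no longer: Calca, Cldn1, Etv4, Gjb2, Has2, Itgb8, Lfng, Mfge8, Pgr, Rspo1 and Slc7a2 (adjusted p 0.0505 to 0.102). All 509 called genes kept their direction under each of these settings in which they were measured.

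**Figure D1:**
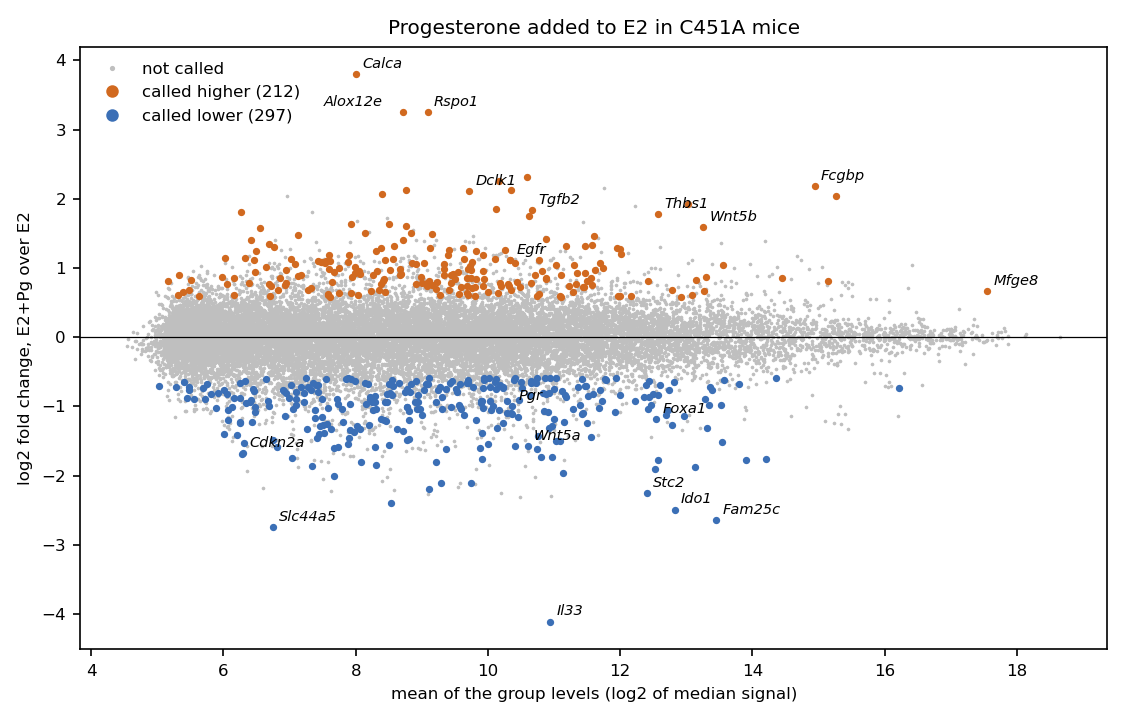
Log2 fold change of E2+Pg over E2 in C451A mice (y axis) against the mean of the 2 group levels on the log2 scale (x axis), 1 point for each of 20681 genes. The 212 called rises are orange and the 297 called falls blue, Calca and Il33 lie at the ends, and most genes lie near 0.

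Il33, an alarmin cytokine held in the nuclei of barrier epithelia, had the lowest log2 fold change of all called genes. Its probe lies at chr19:30035101-30035160 of mm9, the build of the array's annotation. Its log2 signal was 14.08, 11.91, 13.84, 12.53 and 12.65 under E2 and 8.37, 11.03, 8.12, 7.97 and 8.95 under E2+Pg. No E2+Pg mouse reached the lowest E2 mouse, and L18 was the highest of its group. By limma the difference was −4.11 on the log2 scale (standard error 0.57, adjusted p = 0.00149), or 17.3-fold lower. A second probe of the gene gave −2.98. The difference within slides was −0.88 to −5.72, and the call was kept in all 20 alternative settings.

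Other large falls were found in genes of several kinds. Stc2, stanniocalcin 2, a secreted glycoprotein and known estrogen target, was 14.12, 13.32, 14.08, 12.67 and 13.46 under E2 and 11.43, 11.60, 10.73, 11.70 and 10.93 under E2+Pg. The groups were about 1 log2 unit apart at their closest, and the log2 fold change was −2.25 (standard error 0.27, adjusted p = 0.00109 from limma). Ido1, which opens the breakdown of tryptophan, was 14.38, 12.65, 14.80, 13.86 and 14.65 under E2 and 12.24, 10.62, 11.41, 12.58 and 11.03 under E2+Pg (−2.49, standard error 0.49). Here the highest E2+Pg mouse, L53, lay just under the lowest E2 mouse, L58, and without L4 and L18 together the adjusted p was 0.0533. Cxcl13, a chemokine that attracts B cells, was 8.24 to 9.08 under E2 and 5.45 to 7.89 under E2+Pg (−2.0). Slc44a5, a protein of the choline transporter-like family, was 6.37 to 8.68 and 4.76 to 5.96 (−2.74), with 3 of 5 E2+Pg arrays well above background. Both genes kept their calls without each mouse in turn.

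Among the 12 largest falls without overlap were also the hyaluronan genes Has2, a hyaluronan synthase (−1.81), and Itih2, a protein chain that binds hyaluronan (−2.11). Ly6a, the surface protein Sca-1 that marks hormone-sensing LCs, had a log2 fold change of −1.88, and Enho, which codes for the peptide adropin, of −1.91. The cation channel gene Trpc6 was at −2.39, with 4 of 5 E2+Pg arrays well above background. Fam25c (−2.65) and Pwwp3b (−2.11) complete the 12. All lay lower on 5 of 5 slides, which follows from groups that do not overlap. Single mice ended some of these calls. Fam25c had an adjusted p of 0.0544 to 0.0752 without L27, L61 or L76, and Trpc6 0.0501 to 0.0604 without L27, L51, L61 or L63. For Enho it was 0.0593 to 0.0824 without L27, L61 or L63, and for Has2 0.0509 to 0.0621 without L27, L4, L51, L61, L63 or L76. Ly6a belongs to a family of close copies, so its probe may read more than 1 of them.

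Of the rises without overlap, Alox12e, an epidermal-type 12-lipoxygenase that oxidises arachidonic acid, was the largest, with its probe at chr11:70129157-70129216 of mm9. It was 7.53, 7.46, 7.69, 6.81 and 5.96 under E2 and 8.35, 11.26, 11.38, 10.15 and 10.59 under E2+Pg. Each E2+Pg mouse lay above all E2 mice, and L56 was the closest to them. The difference of 3.26 on the log2 scale (standard error 0.46, limma adjusted p = 0.00149) is 9.55-fold, and the call was kept in all 20 alternative settings. Fcgbp, a mucus protein that binds the Fc part of IgG, went from 13.18, 15.04, 12.52, 14.04 and 14.46 to 15.99, 15.29, 16.59, 16.05 and 16.22 (2.18). Dclk1, a kinase with a doublecortin domain, went from 8.53, 8.48, 8.76, 8.98 and 8.52 to 10.38, 11.48, 10.89, 11.03 and 10.07 (2.11), and its 3 probes gave 1.62 to 2.17. For Dclk1 the gap between the groups was wider than the spread of the E2 mice.

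Secreted signals and a matrix gene were among the other large rises. Edn1, the gene of the vasoconstrictor peptide endothelin 1, was 8.26, 9.88, 8.75, 9.49 and 9.63 under E2 and 11.28, 10.68, 11.53, 10.69 and 11.07 under E2+Pg (1.85). Tgfb2, a TGFβ ligand, was 9.68, 10.07, 9.36, 9.72 and 9.94 against 10.92, 11.69, 12.25, 11.20 and 11.91 (1.84). Thbs1, thrombospondin 1, a matrix protein that can activate latent TGFβ, was 11.12, 11.68, 11.10, 12.48 and 12.04 against 13.11, 13.57, 13.66, 13.28 and 13.71 (1.78). For all 3 genes every E2+Pg mouse lay above every E2 mouse, and they were called in all 20 alternative settings. The potassium channel gene Kcnd2 (1.80, with 2 of 5 E2 arrays well above background), the netrin gene Ntng1 (1.75), Glipr2 (1.64) and Bcl2a1d, a pro-survival BCL2 relative with near-identical copies (1.61), were also among the 12. The adjusted p of Bcl2a1d was 0.0536 without L51 and 0.0752 without L61. Probes disagreed for Xpo7, a nuclear transport receptor, where the brightest gave 2.26 and the other 4 gave −0.08 to 0.82, and for Lrrc27, where the brightest gave 1.64 and the other −0.01. The mean over the probes of Xpo7 was not called (adjusted p = 0.111).

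**Figure D2:**
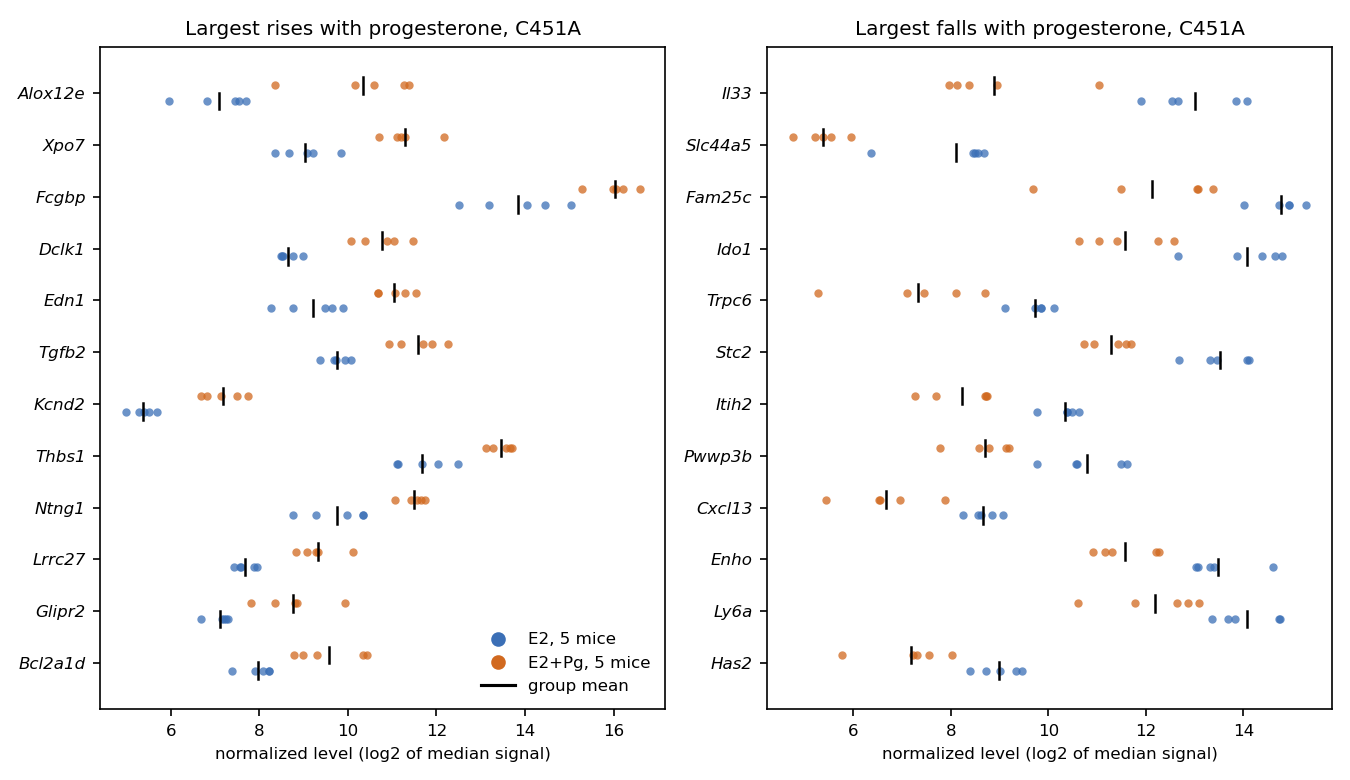
Log2 signal (x axis) of the 12 largest rises and the 12 largest falls among called genes with separate groups, 1 row for each gene. Blue points are the 5 E2 mice, orange points the 5 E2+Pg mice and black bars the group means. Alox12e and Il33 head the panels, and in Il33 the mouse L18 (11.03) stands nearest to the E2 group.

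The promoters of the 3 largest rises and 3 largest falls among these 24 genes that have an entry in the reference are shown, as they belong to the genes at the head of either direction. They are RefSeq sequences of GRCm38.p6, with 250 bases before and 50 after an annotated start, written 5′ to 3′ on the gene's strand. Alox12e lies at chr11:70322481-70322780 (minus strand), Fcgbp at chr7:28070986-28071285 (plus), Dclk1 at chr3:55242114-55242413 (plus), Il33 at chr19:29924863-29925162 (plus), Slc44a5 at chr3:153973186-153973485 (plus) and Fam25c at chr14:34355344-34355643 (minus). Capitals mark matches on either strand to the core shared by PR and related steroid receptors (ACANNNTGT), the estrogen response element (GGTCANNNTGACC), the STAT core (TTCNNNGAA) or the letters TATAA. The last were sought at any position of the window, not only where a TATA box lies, and were added after the values were seen. None of the 6 windows holds 1 of the first 3 motifs, and Fcgbp, Il33 and Fam25c hold a TATAA each. The reference has 2 windows for Dclk1 and 2 for Il33, of which only the first listed was read.
Alox12e: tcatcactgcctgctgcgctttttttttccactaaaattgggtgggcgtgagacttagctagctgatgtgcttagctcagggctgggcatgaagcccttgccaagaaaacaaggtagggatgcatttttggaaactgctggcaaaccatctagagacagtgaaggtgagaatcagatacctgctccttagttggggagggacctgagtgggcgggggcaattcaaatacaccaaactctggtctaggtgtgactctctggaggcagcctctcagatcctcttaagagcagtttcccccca
Fcgbp: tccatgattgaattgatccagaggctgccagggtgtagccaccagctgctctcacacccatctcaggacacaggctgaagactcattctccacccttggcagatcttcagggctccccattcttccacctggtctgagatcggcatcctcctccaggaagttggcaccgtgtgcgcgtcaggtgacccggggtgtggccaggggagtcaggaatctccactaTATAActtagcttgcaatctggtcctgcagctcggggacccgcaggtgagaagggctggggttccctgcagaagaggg
Dclk1: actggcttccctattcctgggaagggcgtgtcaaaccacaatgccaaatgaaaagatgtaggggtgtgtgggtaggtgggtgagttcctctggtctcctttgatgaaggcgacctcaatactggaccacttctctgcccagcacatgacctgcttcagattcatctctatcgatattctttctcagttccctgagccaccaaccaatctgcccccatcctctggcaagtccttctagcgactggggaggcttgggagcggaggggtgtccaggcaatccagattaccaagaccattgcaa
Il33: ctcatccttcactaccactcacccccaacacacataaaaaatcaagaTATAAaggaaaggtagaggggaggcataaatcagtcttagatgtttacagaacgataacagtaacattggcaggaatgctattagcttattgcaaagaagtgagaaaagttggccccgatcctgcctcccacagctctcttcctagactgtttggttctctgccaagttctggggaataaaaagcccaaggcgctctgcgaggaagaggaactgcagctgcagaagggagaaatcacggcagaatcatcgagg
Slc44a5: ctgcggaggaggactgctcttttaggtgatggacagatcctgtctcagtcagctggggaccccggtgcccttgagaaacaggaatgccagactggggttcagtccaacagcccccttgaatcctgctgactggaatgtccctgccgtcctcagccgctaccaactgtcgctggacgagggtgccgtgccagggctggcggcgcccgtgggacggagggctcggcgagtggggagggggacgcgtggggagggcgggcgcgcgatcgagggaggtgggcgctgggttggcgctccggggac
Fam25c: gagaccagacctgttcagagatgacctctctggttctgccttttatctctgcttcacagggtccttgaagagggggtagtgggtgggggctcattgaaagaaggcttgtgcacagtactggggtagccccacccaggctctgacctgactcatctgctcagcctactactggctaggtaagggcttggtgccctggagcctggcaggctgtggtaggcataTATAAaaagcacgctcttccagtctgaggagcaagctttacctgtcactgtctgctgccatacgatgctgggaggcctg
A reference promoter was found for 12346 of the 20681 genes tested, for 153 of the 212 called higher and for 206 of the 297 called lower. The steroid receptor core was in 4.54% of all windows, in 5.23% of those of higher and in 5.83% of those of lower genes. The STAT core was in 7.2%, 5.23% and 3.4%, and TATAA in 16%, 15% and 13.1%. The estrogen response element was in 3 windows of all genes and in 0 of either called group. These are shares of letters in 300 bases, in the first listed window of each gene, and were not tested.

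Known PR targets and the paracrine genes gave a mixed picture. Counts of called list members, here and below, stand beside 1.03% of all genes called higher and 1.44% called lower. Of 25 listed PR targets 23 were tested, 3 were called higher (Calca, Edn1, Fkbp5) and 0 lower, and their median log2 fold change was −0.13 beside 0.00175 for all genes. Calca, the gene of calcitonin and a known target of progesterone, had the highest log2 fold change of all called genes. It was 8.61, 5.68, 6.36, 4.90 and 4.98 under E2 and 9.11, 11.26, 11.65, 11.78 and 5.72 under E2+Pg. L18, L61 and L53 lay highest and L56 just above the highest E2 mouse, while L63 stayed within the range of the E2 mice. The log2 fold change was 3.80 (standard error 0.95, adjusted p = 0.0375 from limma, exact permutation p = 0.0317), and it was 0.506 to 6.88 within slides, higher on 5 of 5. The probe was well above background on 3 of 5 E2 arrays, and a second, dimmer probe gave 1.04. The call was lost without L18, L27, L51, L53, L58, L61 or L76 (adjusted p 0.0506 to 0.125) and with slide as a block (0.0672). Fkbp5, a co-chaperone of steroid receptors and a textbook target of them, was 9.11, 9.27, 9.05, 8.57 and 8.98 under E2 and 9.31, 9.94, 10.37, 9.61 and 10.27 under E2+Pg (0.90, without overlap, adjusted p = 0.0145 from limma and 0.053 without L61).

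Tnfsf11, the gene of RANKL, was near the limit of the array. It was 5.58, 4.50, 4.92, 4.64 and 4.53 under E2 and 4.53, 7.57, 5.81, 5.01 and 4.69 under E2+Pg, and its probe was well above background on 1 E2 array and 2 E2+Pg arrays. Only L18 lay clearly above the rest, and the difference was 0.69 (standard error 0.50, adjusted p = 0.503 from limma). A second Tnfsf11 probe gave −0.06. Wnt4 was 11.51, 11.97, 12.18, 11.90 and 11.71 under E2 and 11.49, 10.94, 11.20, 11.39 and 11.27 under E2+Pg. Its groups did not overlap, with the E2+Pg mice lower, but it was not called (−0.59, adjusted p = 0.365). Areg, an EGF receptor ligand made by hormone-sensing cells, had a log2 fold change of −1.31 and was lower on 5 of 5 slides, without passing the test (adjusted p = 0.0581). It passed in 5 of the 20 alternatives (adjusted p 0.0272 to 0.0454): with the authors' value table, with probes above background on all 19 arrays, with array weights, and without L56 or L53.

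In the list of RANKL and paracrine Wnt genes, 2 of 24 tested rose and 1 fell, with a median log2 fold change of 0.28. Wnt5b, a non-canonical Wnt ligand with its probe at chr6:119382550-119382609 of mm9, was 12.20, 12.64, 12.14, 12.61 and 12.76 under E2 and 14.20, 13.88, 14.41, 13.93 and 13.85 under E2+Pg. The groups stood more than 1 log2 unit apart, with the lowest adjusted p of the named genes (1.59, standard error 0.16, adjusted p = 0.000135 from limma). Wnt5a, a close relative, moved the other way, from 11.64, 10.59, 11.47, 11.54 and 11.69 to 9.80, 9.23, 9.85, 10.46 and 9.72 (−1.57, standard error 0.23, adjusted p = 0.00204). Wnt5b had 2 probes and Wnt5a 3, and each gave the direction of its gene. Rspo1, R-spondin 1, which boosts Wnt signals and is made by luminal cells, was 9.73, 6.49, 7.91, 6.23 and 6.97 under E2 and 9.39, 13.50, 11.35, 11.09 and 8.23 under E2+Pg. Its groups overlapped through L4 under E2 and L56 and L63 under E2+Pg. The log2 fold change was 3.25 (standard error 0.76, adjusted p = 0.0263), and the call was lost without L27, L51, L53, L61 or L76 (0.05 to 0.0829) and with slide as a block (0.051).

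Markers of hormone-sensing LCs were lower as a group. Of 12 listed, all had a log2 fold change below 0, with a median of −1.03 beside 0.00175 for all genes. Called lower were 4, beside 1.44% of all genes: Pgr, Foxa1, Ly6a and Prom1. Foxa1, the pioneer factor that opens chromatin for ERα, was 13.23, 12.77, 13.83, 12.88 and 12.97 under E2 and 12.44, 11.74, 11.18, 12.47 and 11.92 under E2+Pg (−1.19, without overlap, adjusted p = 0.0135 from limma). Pgr was 11.65, 10.30, 11.25, 10.30 and 10.82 under E2 and 9.95, 10.13, 9.24, 10.32 and 9.73 under E2+Pg, so that L53 lay level with the lowest E2 mice. Its log2 fold change was −0.99 (adjusted p = 0.036), and without L27, L4, L51, L56, L61 or L63 the adjusted p was 0.0547 to 0.121. Prom1, a surface marker of these cells named here after its values were seen, differed by −1.16 (adjusted p = 0.00916).

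The other 8 hormone-sensing markers did not pass the test. Esr1 itself was 10.69, 11.60, 11.09, 11.37 and 11.11 under E2 and 10.67, 9.34, 9.26, 10.03 and 11.52 under E2+Pg. L63 lay within the E2 range while L18 and L61 were far below it, and the difference was −1.01 (standard error 0.32, adjusted p = 0.0939 from limma). Prlr, the prolactin receptor, was 14.01 to 14.77 and 12.67 to 14.09 (−1.05, adjusted p = 0.066), and Cited1, a co-regulator of ERα, differed by −1.32 (adjusted p = 0.114). The mean level of the 12 markers, relative to the mean over the 19 arrays, was 0.374 to 0.688 under E2 and −1.07 to −0.0286 under E2+Pg, without overlap and so lower on 5 of 5 slides. The list had 1 called member with the C451A arrays fitted alone, 2 without L4 and L18, 6 with array weights and 7 with the authors' value table, and its 12 members kept their direction in each alternative. Without L4 and L18 the adjusted p of Foxa1 was 0.0553, and with the C451A arrays alone that of Foxa1 was 0.0763 and that of Ly6a 0.0913. Esr1 was called with array weights (0.0216) and without L63 (0.0103), and Prlr with the authors' value table, with array weights and without L56 (0.039 to 0.0402).

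Genes of luminal progenitors and of alveolar fate were at the opposite end. Of 18 tested 17 had a log2 fold change above 0, with a median of 0.56 beside 0.00175 for all genes. Called higher were 4, beside 1.03% of all genes: Rspo1, Foxc1, Sox10 and Mfge8. Foxc1, a forkhead factor of ERα-negative luminal cells, was 9.19, 9.08, 9.23, 9.12 and 9.35 under E2 and 9.89, 10.72, 10.73, 10.03 and 10.84 under E2+Pg. The E2 mice lay close together and below all E2+Pg mice (1.25, adjusted p = 0.00336 from limma). Sox10, a factor of progenitor and neural crest cells, was 10.84 to 11.41 and 11.60 to 12.68 (1.08, adjusted p = 0.0173, and 0.0642 without L61). Mfge8, the milk fat globule protein lactadherin, was 16.96, 17.54, 16.87, 17.22 and 17.50 against 18.11, 17.50, 18.02, 17.74 and 18.02. Its groups overlapped, the log2 fold change was 0.66 (adjusted p = 0.0407), and the call was lost without L27, L4, L53, L56, L61, L63 or L76 (0.0504 to 0.127).

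The alveolar master regulator Elf5 and the milk genes did not pass the test. Elf5 was 10.79 to 12.64 under E2 and 11.05 to 13.77 under E2+Pg, with L18 the highest (0.29, adjusted p = 0.8). Csn2, β-casein, was 9.52, 6.48, 6.73, 5.89 and 7.69 under E2 and 5.33, 13.22, 6.84, 5.22 and 5.85 under E2+Pg (0.03, standard error 1.16), and L18 stood alone: without it the difference was −1.45. Csn3, κ-casein, was 15.50 to 16.42 and 15.30 to 15.95 (−0.39), and Stat5a, the transcription factor that prolactin activates, differed by −0.20 (0.02 by a second probe). Of 26 milk and lipid secretion genes tested, 1 was called, Mfge8, beside 1.03% of all genes called higher, and the median was 0.25. The mean level of the progenitor and alveolar list was −0.511 to −0.036 under E2 and 0.185 to 0.776 under E2+Pg, without overlap and so higher on 5 of 5 slides. It had 1 called member without L61, and 2 without L27, L53 or L76, without L4 and L18 together, with slide as a block or with the C451A arrays alone. The shorter list of 12 luminal progenitor markers was less separate: 1 was called (Mfge8), 10 were above 0, and the median was 0.38 in C451A and −0.23 in wild type. Its mean level was −0.567 to 0.414 under E2 and 0.0546 to 0.44 under E2+Pg, so the groups overlapped, and it was higher on 4 of 5 slides, with −0.317 on the other.

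**Figure D3:**
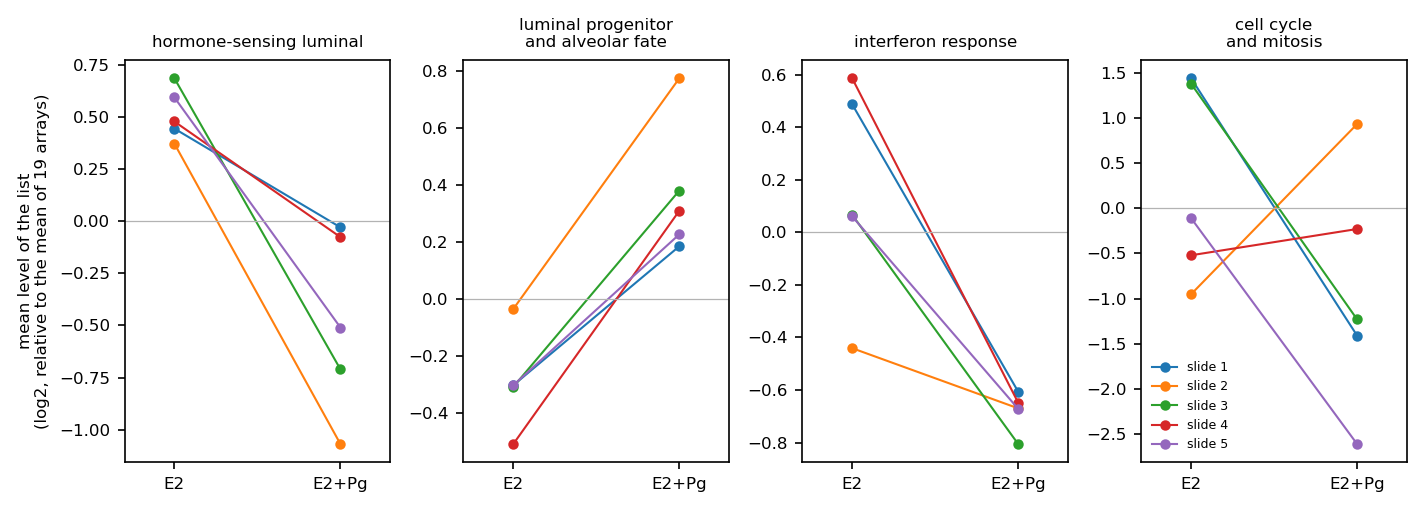
Mean log2 level of the members of 4 gene lists, relative to the mean over all 19 arrays (y axis), in C451A mice with E2 and E2+Pg, 1 point for each mouse and a line between the mice of 1 slide. Hormone-sensing markers lie lower and progenitor and alveolar genes higher with Pg on 5 of 5 slides, interferon genes lie lower on 5 of 5, and cell cycle genes go up on 2 slides and down on 3. Where the groups do not overlap, as in all but the cell cycle list, 5 of 5 follows.

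Estrogen targets split. Of 23 tested, Stc2 and Pgr fell, Igf1r rose, and the median was −0.14. Igf1r, the receptor of insulin-like growth factor 1, was 8.10, 8.38, 8.15, 8.20 and 8.28 under E2 and 8.93, 9.17, 9.10, 9.14 and 9.37 under E2+Pg, a narrow range in either group (0.92, standard error 0.13, adjusted p = 0.00149 from limma). Greb1, a classical estrogen target, spread from 5.38 to 10.89 under E2 and from 6.01 to 9.66 under E2+Pg and was not called (−0.94, adjusted p = 0.645).

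Egfr, the receptor of EGF and amphiregulin, was the called member of the EGF family (1 of 15 tested). It was 9.65, 10.01, 9.58, 9.88 and 9.78 under E2 and 10.99, 10.67, 11.05, 10.77 and 10.96 under E2+Pg. The groups were clearly apart, 1.11 apart on the log2 scale (standard error 0.17, limma adjusted p = 0.00231), and its 4 probes gave 0.69 to 1.11. In the FGF family 1 of 17 fell, Etv4, an ETS factor downstream of FGF receptors (−1.01, adjusted p = 0.0414), and that call was lost without L27, L4, L51, L56, L61 or L63 (0.0706 to 0.128). Tgfb2 was the 1 called gene of 25 in TGFβ and BMP signaling, and Thbs1 the 1 of 42 in the extracellular matrix. Over all genes 1.03% were called higher and 1.44% lower. A single call in lists of this size is read for its gene only. Fgb, fibrinogen β, was 14.19, 16.05, 15.50, 16.28 and 16.51 under E2 and 16.23, 10.53, 14.87, 15.75 and 15.09 under E2+Pg, where L18 alone lay far from the others (−1.21, adjusted p = 0.628).

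Notch genes moved singly. Heyl, a Notch target, was 5.50 to 6.18 under E2 and 6.58 to 7.19 under E2+Pg (1.14, adjusted p = 0.00242 from limma), whereas the ligand Jag1 fell from 8.36 to 8.94 down to 7.5 to 8.12 (−0.86, adjusted p = 0.00436). Lfng, a glycosyltransferase that modifies Notch, differed by −0.67 (adjusted p = 0.0475 from limma), with 3 of 5 E2+Pg arrays well above background. Its call did not hold without 8 of the 10 mice: L18, L27, L4, L51, L56, L61, L63 or L76 (0.0567 to 0.14). The median of the 14 Notch genes tested was 0.05. Adam10, a protease that cleaves Notch and other surface proteins, fell from 12.84, 12.71, 13.01, 12.76 and 12.68 to 12.10, 12.04, 11.72, 12.13 and 11.69. These groups were tight and apart (−0.87, standard error 0.12, adjusted p = 0.00149 from limma). Adam10 was the 1 of 37 proteases and inhibitors called, beside 1.44% of all genes called lower.

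Junction and transport genes held further calls. In the tight junction list, which also holds gap junction genes, 17 of 20 members were above 0. Their median was 0.23 beside 0.00175 for all genes, and 2 rose, beside 1.03% of all genes called higher. Cldn1, a claudin, went from 10.13 to 12.21 up to 11.84 to 13.44 (1.27, adjusted p = 0.0482 from limma), and Gjb2, connexin 26, from 9.31 to 9.82 up to 9.88 to 11.94 (1.13, adjusted p = 0.0375). Cldn1 lost its call without L27, L4, L53, L56, L61, L63 or L76 (0.073 to 0.156) and Gjb2 without L27, L4, L51, L53, L61 or L76 (0.0514 to 0.104). Of 23 ion transport genes the calcium pump Atp2b1 (1.32) and the potassium channel Kcnn4 (1.04) rose, and Clca1, a secreted regulator of chloride channels, fell (−1.80). Clca1 was 9.87, 9.92, 9.39, 10.60 and 10.76 under E2 and 8.49, 8.07, 8.04, 8.57 and 8.37 under E2+Pg, so the groups were apart (adjusted p = 0.00385), and these 3 genes kept their calls without each mouse.

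Single members of other lists were called as well. With 1.03% of all genes called higher and 1.44% lower, they are given as values of those genes only. The integrin gene Itgb8 rose by 0.77, and its call was lost without L18, L27, L51, L53, L58, L61 or L76 (0.0507 to 0.101). The arginine transporter Slc7a2 fell by 1.2 (lost without each mouse but L4, 0.0534 to 0.151) and the hexokinase Hk2 by 0.75 (0.0661 without L61, 0.0512 without L76). H2-DMa, which loads peptides on MHC class II, fell by 0.69 (lost without L27, L4, L51, L56, L61, L63 or L76, 0.0565 to 0.124). In the list of cornified epithelium Sbsn (1.33) and Spink5 (0.94) rose while Sprr1a fell by 1.51, a call lost without L4, L51, L61, L63 or L76 (0.0531 to 0.0981). Sbsn is a secreted protein of stratified epithelia and the 1 called epidermis marker.

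Cell cycle genes varied widely between mice. All 28 tested had a log2 fold change below 0, with a median of −1.26 beside 0.00175 for all genes. But 0 were called by limma, and 14 had an unadjusted p under 0.05, beside 2026 lower genes of all 20681. Mki67, the gene of the Ki-67 antigen, was high and low in mice of either group. It was 12.45, 10.32, 12.44, 10.49 and 11 under E2 and 9.63, 12.40, 9.81, 11.31 and 6.98 under E2+Pg (−1.31, standard error 0.70, adjusted p = 0.335 from limma). The list mean was 1.44 in L4 and 1.38 in L27 under E2, 0.933 in L18 and −2.61 in L63 under E2+Pg. Without L18, 3 members were called lower, and 1 was without L58. Ccnd1, cyclin D1, differed by −0.26. Of 7 CDK inhibitors 1 fell, Cdkn2a, the gene of p16INK4a and p19ARF: it was 7.40, 7.18, 6.81, 7.21 and 7.04 under E2 and 5.31, 5.43, 5.6, 5.74 and 5.18 under E2+Pg. Its groups lay more than 1 log2 unit apart (−1.68, standard error 0.21, adjusted p = 0.00109 from limma). The Cdkn2a probe was well above background on 4 of 5 E2+Pg arrays, and the change was −2.52 to −1.13 over the alternatives.

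Interferon-response genes lay lower with Pg. Of 28 tested 27 were below 0, with a median of −0.81 beside 0.00175 for all genes. Called lower was 1, beside 1.44% of all genes: Oas1a, a sensor of double-stranded RNA. Oas1a was 12.44, 10.93, 11.80, 12.20 and 11.81 under E2 and 10.12, 9.99, 9.56, 10.44 and 10.41 under E2+Pg. The groups were apart (−1.73, standard error 0.35, adjusted p = 0.013 from limma), though without L4 and L18 together the adjusted p was 0.0562, and near copies of the gene may share its probe. The mean level of the list was −0.441 to 0.586 under E2 and −0.806 to −0.607 under E2+Pg, with the 5 E2+Pg mice close together.

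**Figure D4:**
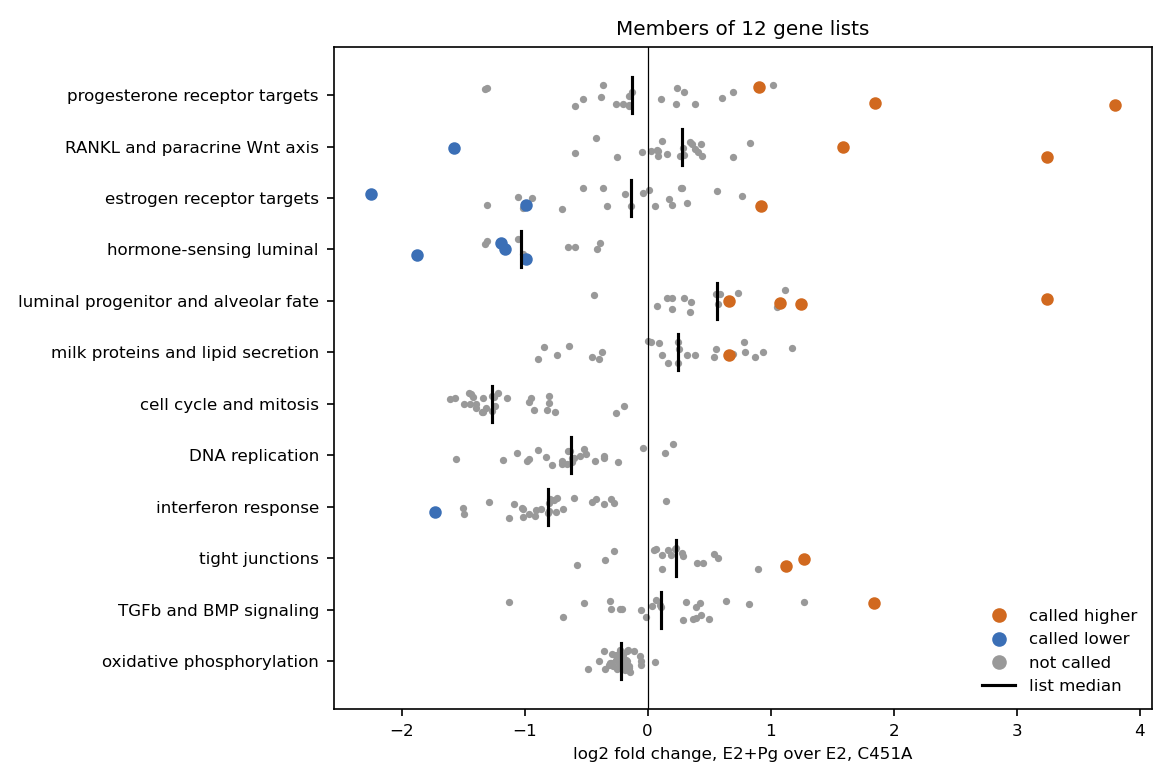
Log2 fold change of E2+Pg over E2 in C451A mice (x axis) for the tested members of 12 gene lists, 1 point for each gene. Orange points were called higher, blue points lower, grey points not called, and black bars are list medians: the cell cycle median is −1.26 with 0 calls, and the hormone-sensing median −1.03 with 4.

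Markers of other cells were read in the same arrays. All 14 basal, all 12 fibroblast and 9 of 12 immune markers tested were well above background on all 10 arrays, and limma called 0 markers of basal, fibroblast, pericyte, endothelial, immune, adipocyte, erythrocyte or skeletal muscle and nerve cells. At an unadjusted p under 0.05 there was 1 each of the basal, endothelial and muscle and nerve markers, and 0 of the others. Median log2 fold changes were 0.16 for basal, 0.05 for fibroblast, 0.05 for endothelial and −0.19 for immune markers. The mean level of basal markers was −0.385 to 0.497 under E2 and −0.497 to 0.679 under E2+Pg, and that of fibroblast markers −0.964 to 0.724 and −0.516 to 0.63. The largest shift was in skeletal muscle and nerve markers (median −1.79, from −1.36 to 1.49 under E2 and from −1.56 to 0.637 under E2+Pg), among them muscle actin Acta1 (−2.13, adjusted p = 0.379 from limma). The part of these cells in the results above was not tested.

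Wild-type LCs gave values for the same genes in mice that do not enter the C451A comparison, although they lay on the same slides and share its estimate of the spread. In wild type 122 genes were higher with Pg (0.59%) and 152 lower (0.735%). Of the 212 genes higher in C451A, 205 had a positive difference in wild type (96.7%, beside 55.6% of all genes), 48 were also called higher there, and their median log2 fold change was 0.91 in C451A and 0.56 in wild type. Of the 297 lower genes, 281 had a negative difference in wild type (94.6%, where 55.6% of all genes were positive). Of these 297, 50 were called lower in wild type, and the medians were −0.93 in C451A and −0.52 in wild type. None was called the opposite way. The genes were chosen on their C451A values, so the medians of the genotypes are not compared.

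The difference between genotypes was tested for every gene as the interaction of genotype and Pg. By limma 0 of 20681 genes (0%) were called, the smallest adjusted p was 0.472, and 1938 genes had an unadjusted p under 0.05. None of the alternative settings that fit both genotypes called a gene. The interaction has a larger error than either effect, with a median standard error of 0.273 against 0.187 for the effect in C451A, and this design does not show that the genotypes respond alike. No response above is therefore shown to be particular to C451A.

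Some named genes had unlike values side by side. Egfr differed by 1.11 in C451A and −0.09 in wild type, an interaction of 1.2 (standard error 0.25, adjusted p = 0.472 from limma). For Igf1r the values were 0.92 and 0.14, and for Thbs1 1.78 and 0.38. Il33 was at −4.11 and −1.94, and Stc2 at −2.25 and −1.08. Calca and Rspo1 had the larger values in wild type, 6.23 against 3.80 and 4.97 against 3.25. Csn2 was at 3.72 in wild type and 0.03 in C451A, and Tnfsf11 at 1.80 and 0.69. The median of cell cycle genes was 0.34 in wild type and −1.26 in C451A, and that of interferon genes −1.85 and −0.81. For none of these genes did the interaction pass the test.

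**Figure D5:**
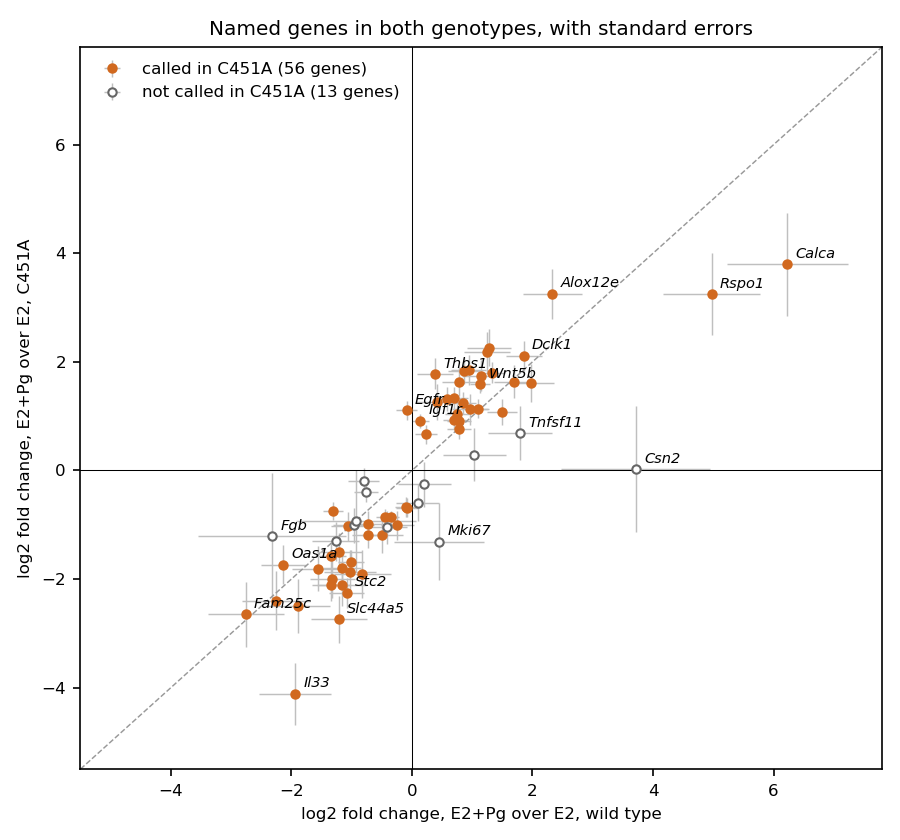
Log2 fold change of E2+Pg over E2 in wild type (x axis) and in C451A (y axis) for 69 named genes, with standard errors and a dashed line of equal values. Filled points are the 56 genes called in C451A and open points the 13 others; most called genes lie on the same side of 0 in both genotypes, and Egfr (1.11 and −0.09) lies near the vertical axis.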

How the data were processed

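RNA of sorted LCs was hybridised to 1-colour Agilent mouse arrays (design 074809), 1 mouse for each array. The deposited scanner files hold spot intensity as Feature Extraction 10.10.1.1 wrote it. The authors' value table holds log2 intensity after quantile normalization, with every column at a median of 7.77, and it correlated at 0.998 to 1.0 with the arrays. Here, log2 median signals without background subtraction were quantile normalized over 19 arrays. The study's methods also name a correction for washing bath and labeling series, which was not applied here, since the labels do not give them. The authors' value table and slide as a block were alternatives. Control spots and 1370 outlier spots were left out. Probes well above background on at least 4 arrays were kept, and the probe with the highest mean level stood for its gene. Of 56605 probes, 32989 were named through the systematic name, 909 through another accession, 7969 through a probe of the same name and 14738 by the file alone. The C451A arrays had 27643 to 31265 probes above background, a 75th percentile of the signal of 305.5 to 490, and no saturated spot. Their number, 5 mice against 5, limits the precision.

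Group means of the 4 groups were fitted with limma 3.58.1 in R 4.3.3 (15 residual degrees of freedom), with Benjamini-Hochberg adjustment over all genes. Both thresholds had to be passed for a call, 0.05 for the adjusted p and 1.5 for the fold. Single genes also had a two-sided exact permutation test, whose smallest p with 5 against 5 is 0.00794. The fit was run on simulated data with independent noise and planted changes, without the slides or outlying mice of these data. Named genes were 15 genes of the hormone pathway, the 12 largest rises and 12 largest falls among called genes without overlap (predicted or clone names left out), up to 4 called members of each of 30 gene lists, up to 2 called members of each of 12 marker lists, and up to 6 genes called in the interaction. Of the 69 genes this gives, 1 is not reported here. The genes and lists were chosen with earlier results of these data known. Mice share no number between treatments. Deviations of mice on the same slide, over all genes, correlated at −0.615, −0.666, −0.158, 0.0511 and 0.265. Mice of the same slide were thus not alike throughout, and a slide effect on single genes was not tested by these values. Alternatives changed the slide term, the arrays fitted, the normalization, the background correction, the filter, the probe rule, the weights and the mice. Leaving out L4 and L18 together, and the alternatives for the wild-type count, were chosen after seeing the data.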

Additional observations from a re-analysis of the deposited data

Results flagged for a closer look

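Of 136 groups of 5 mice (68 named genes in each treatment), 7 held a mouse whose gap to the next mouse was more than 0.71 of the group's range, and chance gives this in about 1 of 20 groups. Csn2 was 13.22 in L18 under E2+Pg and 6.84 in the next mouse (0.798 of the range). Fgb was 10.53 in L18 and 14.87 in the next (0.762). Under E2, L58 was lowest for Slc44a5 (6.37 and 8.46, 0.903 of the range), Wnt5a (10.59 and 11.47, 0.807) and Itih2 (9.77 and 10.39, 0.719). L27 under E2 was highest for Enho (14.6 and 13.4, 0.763) and lowest for Glipr2 (6.68 and 7.15, 0.778).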

How the results depend on the processing

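Counts of called genes depended on the arrays fitted. Instead of 212 higher and 297 lower genes, the 10 C451A arrays alone gave 72 and 77, of which 69 and 67 were shared, and leaving out 1 mouse gave 97 to 407 and 103 to 565. Without L4 and L18 together, 195 were lower. The wild-type count of 274 was 76 with slide as a block, 1640 with array weights and 515 without L4 and L18. With slide as a block, C451A had 149 higher and 226 lower genes, and 273 and 421 with the values the authors deposited. The interaction had 0 calls in each alternative that fitted it, with 958 to 4702 genes at an unadjusted p under 0.05. Csn2, not called, changed sign with processed signals (−0.651), with array weights (−0.94), without L4 and L18 (−0.889) and without L58 (−0.168), L18 (−1.45), L27 (−0.106) or L76 (−0.315), with a range of −1.45 to 0.592 over the mice left out. Elf5 was −0.132 without L18, and up to 0.547 without another mouse. Of 56 named genes called, 26 kept call and direction in every alternative in which they were measured, 35 without each of the 10 mice, and 0 reversed. The labels give the treatments no shared replicate numbers, so the slide was the 1 block available. Probes near background, such as Tnfsf11, limit what these arrays can show. The cause of each change was not tested.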

Other observations

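Some called genes outside the lists are given as values only. They were picked after their values were seen, the other members of their families were not counted, and nothing is said of the families. Among aldehyde dehydrogenase genes called lower with Pg, Aldh3b2 was at −1.62 (standard error 0.23, adjusted p = 0.00149 from limma), Aldh3b1 at −1.18, Aldh1l1 at −1.04, Aldh3a2 at −0.82 and Aldh3b3 at −0.78 on the log2 scale, all without overlap between the groups. The aldo-keto reductase genes Akr1b3 (−1.78) and Akr1b8 (−1.28) were called lower too. Surface proteins of the Ly6 family, several of which have near-identical copies that a probe may not tell apart, had log2 fold changes of −1.77 (Ly6c2), −1.76 (Ly6c1), −1.59 (Ly6g) and −1.24 (Ly6g6e), while Ly6e (−0.34) and Ly6i (−0.10) were not called. The interleukin receptors Il18r1 (−1.60) and Il1r1 (−0.71) were lower and Il1rap, the partner chain of Il1r1, was higher (1.06).

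Single genes called higher, picked in the same way, included Rrp1b (0.89), Rrs1 (0.74), Grwd1 (0.74), Heatr1 (0.74), Noc3l (0.64), Rrp15 (0.61) and Nop2 (0.60), each without overlap. Others were Tac1, the precursor of substance P (2.13, adjusted p = 0.0416 from limma), the complement gene C3 (1.92), the vitamin D receptor Vdr (1.12), the prostaglandin E2 receptor Ptger4 (0.91), the hepatocyte growth factor receptor Met (0.89) and the ligand Gas6 (0.85). The groups overlapped for Tac1, C3 and Met.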
